A study of Mus musculus with 8 samples.

Results

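The genes described here encode the enzymes that build cholesterol and long-chain fatty acids from acetyl-CoA, together with the proteins that set how much of these enzymes a cell makes. They were taken from a list of 31 gene symbols, and every probe set annotated with 1 of these symbols was a member. Of the 31 genes, 30 had a probe set, and the expression of Acat2, the thiolase that condenses acetyl-CoA, was not analysed here. The 30 genes had 68 of the 45101 probe sets on the array. Of these, 60 passed the filter on low signal, at least 1 for each of the 30 genes, among 27022 probe sets and 13050 genes that passed in all. Each gene is described by its passing probe set with the highest mean signal unless another is named. All values below are log2 signals as deposited or differences of log2 signals.

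The arrays profiled optic fissure tissue of the mouse embryo. The optic fissure is a cleft on the ventral side of the forming eye that closes when its margins fuse. Wild-type C57BL/6 embryos, with no mutation or treatment in any group, were sectioned frozen and the fissure was collected by laser capture at embryonic day 10.5 (E10.5, 3 arrays), E11.5 (3 arrays) and E12.5 (2 arrays). The lysates of 3 embryos of a stage were pooled for each array, and the labels disagree on whether the embryos came from 1 litter or from separate litters. Arrays are named by stage and by the letter in their title. The series was designed to follow gene expression over these 3 days.

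Animal cells make cholesterol through mevalonate and squalene, and make fatty acids by elongating acetyl units and then adding double bonds. Most of these genes are activated by the SREBP transcription factors, which Scap carries out of the endoplasmic reticulum when sterols are low and which the Insig proteins hold back when sterols are high. In the embryo, cholesterol serves new membranes, and it is attached to hedgehog ligands, which pattern the ventral eye.

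Some properties of the arrays touch every value below. The array medians lay between 4.37 and 4.48, but the 99th percentile of log2 signal was 12.53 to 12.91 at E10.5, 11.17 to 12.37 at E11.5 and 12.44 to 12.55 at E12.5. The Gapdh control probe sets, whose 3′ minus 5′ log2 signal measures how far the amplified RNA reaches, gave 4.19 to 4.71 at E10.5, 3.35 to 4.63 at E11.5 and 4.78 to 5.17 at E12.5. E11.5 A was lowest in both measures. The median of all 13050 genes was -0.22 in E11.5 minus E10.5, 0.11 in E12.5 minus E11.5 and -0.10 in E12.5 minus E10.5. Optic cup genes were well detected, with all 6 measured markers of that list (Vax1, Vax2, Rax, Lhx2, Six3, Six6) above the filter. The log2 of their summed signal, in which the brightest genes weigh most, was 12.89 to 13.28 at E10.5, 11.67 to 12.43 at E11.5 and 13.06 to 13.09 at E12.5. The E11.5 arrays thus lay below all others here too. With so few arrays the values are imprecise, and in tissue pools fewer cells of a type and less RNA per cell cannot be told apart.

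Promoter sequences were searched for the motifs of factors known to act on these genes. SREBP proteins bind sterol regulatory elements and E-boxes and act together with NF-Y, which binds CCAAT. Of the 31 listed genes, 25, Acat2 among them, matched RefSeq promoter sequences (GRCm38.p6, from 250 bases before to 50 after the start), which gave 33 promoters. Sqle, Scd1, Scd2, Fdps, Fdft1 and Stard4 did not match. Searched on both strands, the NF-Y box CCAAT was in 22 of the 33 promoters (66.7%), against 37.4% of all 32851 promoters of that length. The E-box CACGTG was in 6 (18.2%, against 7.15% of all), and the sterol regulatory element core TCACNCCAC was in 1, that of Hmgcs1 (3.03%, against 1.24% of all). Overlapping promoters of Scap share 1 E-box, which is thus counted more than once. Counted by gene, the E-box was in 5 of 25 (20%), against 8.09% of all genes. The 250 bases before the start are shown for Tm7sf2, which fell between E10.5 and E12.5, for Fasn, whose E12.5 arrays lay below all E10.5 arrays, for Idi1, whose E12.5 arrays lay above all E11.5 arrays, and for Hmgcs1, which holds the sterol element core. Capitals mark TCACNCCAC and CCAAT, the second as its reverse complement where the match lies on the opposite strand. In Fasn a pair of CCAAT matches on opposite strands overlaps.
Tm7sf2, chr19:6067851-6068100, minus strand: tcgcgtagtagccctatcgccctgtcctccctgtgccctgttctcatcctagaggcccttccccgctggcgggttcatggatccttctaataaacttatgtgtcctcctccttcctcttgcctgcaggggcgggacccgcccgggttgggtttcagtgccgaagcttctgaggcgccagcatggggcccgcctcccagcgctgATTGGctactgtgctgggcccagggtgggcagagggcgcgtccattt
Fasn, chr11:120824548-120824797, minus strand: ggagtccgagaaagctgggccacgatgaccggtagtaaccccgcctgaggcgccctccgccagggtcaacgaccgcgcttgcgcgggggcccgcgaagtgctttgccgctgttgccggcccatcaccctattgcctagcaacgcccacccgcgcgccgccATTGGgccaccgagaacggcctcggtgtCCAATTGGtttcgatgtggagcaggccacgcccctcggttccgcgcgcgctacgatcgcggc
Idi1, chr13:8885356-8885605, plus strand: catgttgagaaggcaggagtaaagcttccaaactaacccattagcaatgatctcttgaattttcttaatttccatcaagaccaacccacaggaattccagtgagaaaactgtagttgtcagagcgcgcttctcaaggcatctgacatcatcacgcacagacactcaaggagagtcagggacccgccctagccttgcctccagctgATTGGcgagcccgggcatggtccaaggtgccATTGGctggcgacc
Hmgcs1, chr13:119690101-119690350, plus strand: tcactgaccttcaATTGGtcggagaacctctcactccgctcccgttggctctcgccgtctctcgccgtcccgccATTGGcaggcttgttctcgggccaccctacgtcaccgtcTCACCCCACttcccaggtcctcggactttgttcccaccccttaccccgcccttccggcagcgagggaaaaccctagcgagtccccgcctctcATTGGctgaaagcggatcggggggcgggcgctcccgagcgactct
A match to these letters is a description of the sequence and not a measured binding site.

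**Figure D1:**
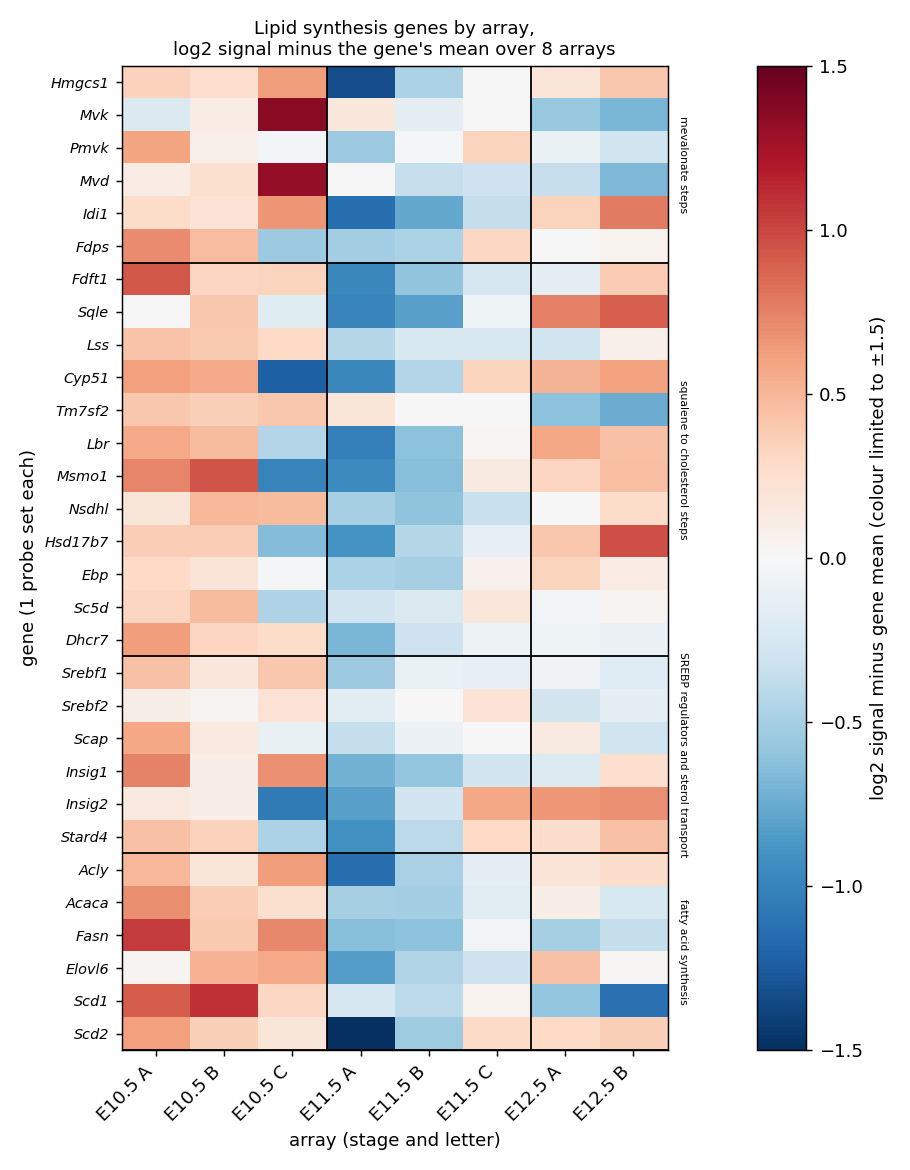
Log2 signal of the 30 genes (rows, grouped by role) on the 8 arrays (columns, by stage and letter) minus each gene's mean over the arrays, blue below and red above it. E11.5 A was the lowest array for 17 of the 30 genes, and Scd1 and Tm7sf2 grade from red at E10.5 to blue at E12.5.

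Between E10.5 and E12.5, Scd1, a stearoyl-CoA desaturase that adds the double bond of oleate, and Tm7sf2, a sterol reductase that acts after Cyp51, fell in the fissure. These were 2 of the 30 members, against a background of 5.26% of all 13050 genes called in limma (Benjamini-Hochberg adjusted p below 0.05), 1.78% lower and 3.49% higher. No member passed in the other direction, and at an unadjusted p below 0.05 there were 5 lower and 0 higher members, where 13.1% of all genes were lower and 11.1% higher. The median change of the 30 genes in E12.5 minus E10.5 was -0.22, against -0.10 for all genes. Every E12.5 array lay below every E10.5 array for 11 of 30 members, where 27.7% of all genes did so, and above for 3, where 19.9% did so. Scd1 was also the 1 member that passed the F test for any stage difference (adjusted p = 0.0374), where 3.38% of all genes passed. No member passed the F test without E10.5 A, E10.5 B, E11.5 A, E11.5 B, E12.5 A or E12.5 B.

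Between E10.5 and E11.5 the log2 changes of 29 of 30 members were below 0 on the deposited scale, where 72.3% of all genes were below 0. In limma 0 members passed, against 0.176% of all genes called in either direction (0.153% higher and 0.023% lower). At an unadjusted p below 0.05, 16 members were lower and 0 higher, where 18.3% of all genes were lower and 3.87% higher. The median of the 30 genes was -0.71, against -0.22 for all genes. For 15 members every E11.5 array lay below every E10.5 array, where 22.2% of all genes did so, and for 0 did every one lie above, where 3.86% did so. After quantile normalization, which gives all arrays the same distribution of signals, 27 of 30 members were still below 0, where 50.5% of all genes were. The members' median was then -0.24, while that of all genes was -0.00.

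Between E11.5 and E12.5 24 of the members' log2 changes were above 0 and 6 below on the deposited scale, where 60% of all genes were above 0 and 40% below. In limma 0 passed, against 2.02% of all genes (1.79% higher and 0.238% lower). At an unadjusted p below 0.05, 6 members were higher and 1 lower, where 14.9% of all genes were higher and 3.22% lower. The median was 0.54, against 0.11 for all genes. Every E12.5 array lay above every E11.5 array for 15 members, where 31% of all genes did so, and below for 3 (Scd1, Tm7sf2 and Mvk), where 15.1% did so. After quantile normalization the split was 18 above and 12 below 0 with a median of 0.094, where 41.9% of all genes were above 0 and 58.1% below. With the Gapdh 3′ minus 5′ signal as a covariate the members' median was -0.15.

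**Figure D2:**
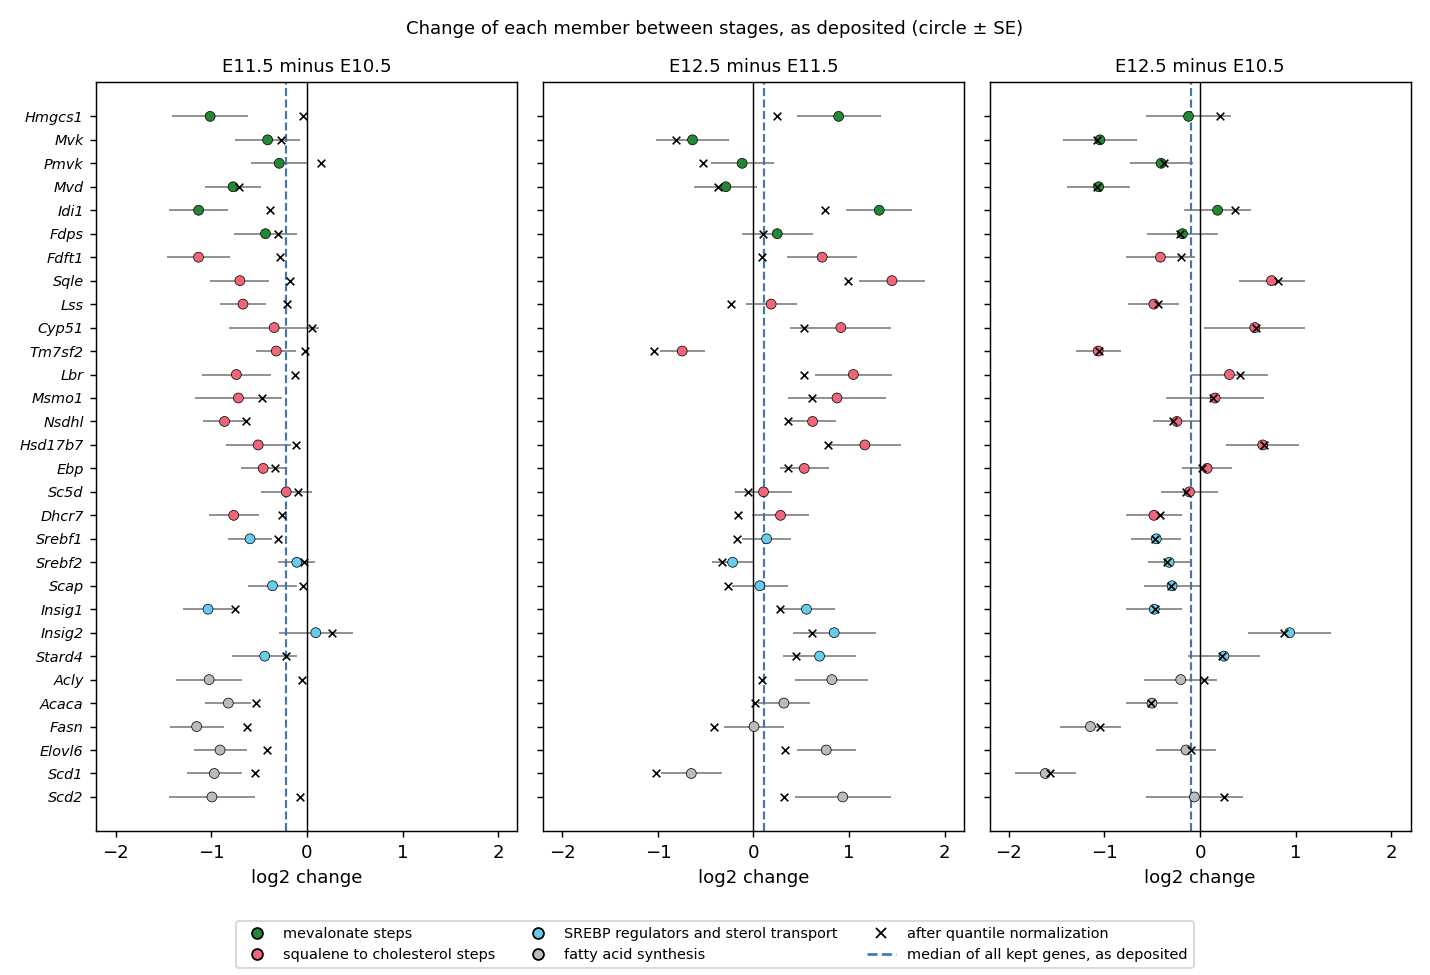
Log2 change of each gene (rows) in E11.5 minus E10.5, E12.5 minus E11.5 and E12.5 minus E10.5, with circles and bars for the deposited values ± SE, crosses for the change after quantile normalization and a dashed line at the median of all genes. In the first panel most crosses lie nearer 0 than the circles, while in the last panel Scd1 (-1.62 as deposited, -1.57 after quantile normalization) and Tm7sf2 (-1.07 and -1.06) keep their place.

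Values by array are given here for the members, for a list of cell cycle genes and for all genes. The median deviation of the 30 genes from their own means was 0.44, 0.35 and 0.26 on E10.5 A to C, -0.67, -0.44 and -0.00 on E11.5 A to C, and 0.05 and 0.10 on E12.5 A and B. E11.5 A thus lay lowest, and E11.5 C lay close to the E12.5 arrays. Cell cycle genes had -0.80, -0.52 and -0.02 on E11.5 A to C. Of these, 19 of 19 measured were below 0 in E11.5 minus E10.5 (median -0.86), where 72.3% of all genes were. In E12.5 minus E11.5, 19 of 19 were above 0 (median 0.74), where 60% of all genes were. After quantile normalization 16 of 19 were below 0 in the first comparison (median -0.29), where 50.5% of all genes were. In the second, 16 of 19 were above 0 (median 0.24), where 41.9% of all genes were. Of the 19 cell cycle genes, 1 was called higher on the deposited scale in E12.5 minus E11.5, where 1.79% of all genes were. It was Ccne2, a cyclin of the start of DNA replication, which rose by 1.70 (SE 0.30, limma adjusted p = 0.0155). The deviations of all genes were -0.29, -0.13 and 0.02 on E11.5 A to C. The part of the arrays' signal range, of RNA quality and of the cell cycle in the members' values was not tested, apart from the fits with quantile normalization and with the Gapdh covariate given above.

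**Figure D3:**
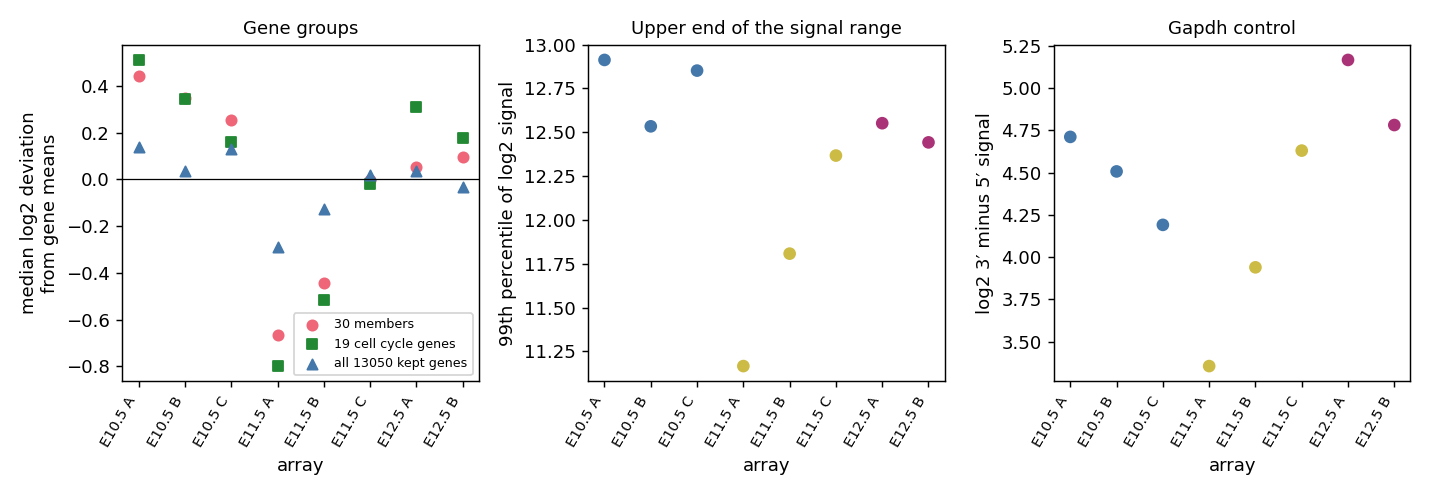
Left, median log2 deviation from gene means of the 30 members, of 19 cell cycle genes and of all 13050 genes on each array; middle, the 99th percentile of log2 signal; right, the 3′ minus 5′ log2 signal of the Gapdh control. E11.5 A is lowest in all 3 panels, at -0.67 for the members, 11.17 for the 99th percentile and 3.35 for Gapdh.

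Among the 6 measured enzymes that lead from acetyl-CoA to farnesyl diphosphate, none passed in any pairwise comparison, and their medians were -0.60 in E11.5 minus E10.5, 0.06 in E12.5 minus E11.5 and -0.30 in E12.5 minus E10.5. After quantile normalization these medians were -0.28, -0.14 and -0.29, so that the sign in E12.5 minus E11.5 turned. Idi1, the isomerase that makes the reactive isoprene unit, read 10.95, 10.88 and 11.34 at E10.5, 9.54, 9.91 and 10.32 at E11.5, and 11.02 and 11.46 at E12.5. The E11.5 arrays of Idi1 lay below all others, while E12.5 overlapped E10.5. Its change was 1.31 in E12.5 minus E11.5 (SE 0.35, limma adjusted p = 0.0923) and -1.13 in E11.5 minus E10.5 (SE 0.31, limma adjusted p = 0.153). Hmgcs1, the synthase that makes HMG-CoA, had changes of -1.01 (SE 0.39) and 0.89 (SE 0.44) in E11.5 minus E10.5 and E12.5 minus E11.5. They were -0.04 and 0.25 after quantile normalization.

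Mvd, the decarboxylase that turns mevalonate diphosphate into isopentenyl diphosphate, read 5.61, 5.74 and 6.81 at E10.5, 5.50, 5.16 and 5.19 at E11.5, and 5.16 and 4.83 at E12.5. Both E12.5 arrays lay below every E10.5 array, and E12.5 overlapped E11.5. The change in E12.5 minus E10.5 was -1.06 (SE 0.33, limma adjusted p = 0.0911), and E10.5 C stood well above the other arrays of its stage. Mvk, mevalonate kinase, showed the same high value on E10.5 C, with 7.78 against 6.21 and 6.53 on A and B, and its change in E12.5 minus E10.5 was -1.05 (SE 0.38, limma adjusted p = 0.139). Pmvk, the next kinase, had -0.41 (SE 0.33) and Fdps, farnesyl diphosphate synthase, -0.18 (SE 0.37) in the same comparison, neither of which passed.

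Of the 12 enzymes from squalene to cholesterol, 1 was called, Tm7sf2. It read 7.90, 7.85 and 7.90 at E10.5, 7.67, 7.51 and 7.51 at E11.5, and 6.88 and 6.76 at E12.5. No arrays of different stages overlapped, and each later stage lay lower. Tm7sf2 fell by 1.07 on the log2 scale in E12.5 minus E10.5 (SE 0.23, limma adjusted p = 0.0274), to 0.478 of its E10.5 signal. With the arrays' letters as a block the limma adjusted p of Tm7sf2 was 0.0966. The call was lost with only the E12.5 and E10.5 arrays (adjusted p = 0.0759), and without E10.5 A (0.0561), E11.5 B (0.0676), E12.5 A (0.150) or E12.5 B (0.367), with the change between -1.01 and -1.12 in these fits, and over 22 alternatives the adjusted p ranged from 0.00327 to 0.367. Lbr, the lamin B receptor, carries the same sterol reductase activity in its membrane part. Its change in E12.5 minus E10.5 was 0.31 (SE 0.40, limma adjusted p = 0.690), and the difference between Lbr and Tm7sf2 was not tested.

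Sqle, squalene epoxidase, a slow step of the pathway, read 9.69, 10.09 and 9.51 at E10.5, 8.70, 8.87 and 9.62 at E11.5, and 10.44 and 10.58 at E12.5. Both E12.5 arrays lay above all 6 earlier arrays. The change in E12.5 minus E11.5, 1.45 (SE 0.35), was the largest of the 30 members as deposited but did not pass (limma adjusted p = 0.0626). The change passed in only 4 of 22 alternatives, among them 2 of the 8 fits that left out 1 array. These 2 were the fits without E10.5 C (adjusted p = 0.0410) and without E11.5 C (0.0228). After quantile normalization the change was 0.99 (adjusted p = 0.103). Hsd17b7, a ketoreductase of the demethylation complex, had a change of 1.16 (SE 0.38, limma adjusted p = 0.162) in E12.5 minus E11.5, and both of its E12.5 arrays lay above all earlier ones.

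Nsdhl, the dehydrogenase that helps to strip methyl groups from lanosterol, read 7.62, 7.94 and 7.91 at E10.5, 6.94, 6.84 and 7.11 at E11.5, and 7.45 and 7.71 at E12.5. Its E11.5 arrays lay below all others. The change in E11.5 minus E10.5 was -0.86 (SE 0.22, limma adjusted p = 0.144). Fdft1, squalene synthase, the first enzyme committed to sterols, read 11.87, 11.26 and 11.27 at E10.5, 9.97, 10.34 and 10.69 at E11.5, and 10.79 and 11.31 at E12.5. Fdft1 was likewise below all other arrays at E11.5, with -1.13 in E11.5 minus E10.5 (SE 0.33, limma adjusted p = 0.159), but -0.29 after quantile normalization. Lss, Cyp51, Msmo1, Ebp, Sc5d and Dhcr7, which carry out the steps between lanosterol and cholesterol or, for Lss, make lanosterol, had changes between -0.76 (Dhcr7) and -0.22 (Sc5d) in E11.5 minus E10.5. The median of the 12 enzymes was -0.68 in that comparison, 0.67 in E12.5 minus E11.5 and -0.02 in E12.5 minus E10.5, or -0.19, 0.36 and -0.06 after quantile normalization.

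None of the 5 regulators, nor the sterol carrier Stard4, passed in any pairwise comparison. Their medians were -0.40 in E11.5 minus E10.5, 0.35 in E12.5 minus E11.5 and -0.31 in E12.5 minus E10.5, or -0.13, 0.055 and -0.33 after quantile normalization. Insig1, which is itself an SREBP target, read 8.46, 7.82 and 8.40 at E10.5, 7.004, 7.14 and 7.43 at E11.5, and 7.52 and 7.97 at E12.5. Its E11.5 arrays lay below all others, with a change of -1.03 in E11.5 minus E10.5 (SE 0.26, limma adjusted p = 0.143) that was -0.75 after quantile normalization. Insig2, the second anchor, was the 1 member above 0 in that comparison, at 0.09 (SE 0.39). It read 7.27, 7.23 and 6.07 at E10.5, 6.31, 6.84 and 7.71 at E11.5, and 7.78 and 7.81 at E12.5, so that both E12.5 arrays lay above all earlier ones. The change in E12.5 minus E10.5 was 0.94 (SE 0.43, limma adjusted p = 0.229).

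The transcription factors themselves did not pass in any comparison either. Srebf2, which drives mainly cholesterol genes, had changes of -0.11 (SE 0.19) in E11.5 minus E10.5, -0.22 (SE 0.22) in E12.5 minus E11.5 and -0.32 (SE 0.22) in E12.5 minus E10.5. Srebf1, which drives mainly fatty acid genes, had -0.59 (SE 0.23), 0.14 (SE 0.26) and -0.46 (SE 0.26) in the same order. Scap, their escort protein, lay between -0.36 and 0.07, and Stard4, a soluble sterol carrier, between -0.44 and 0.69. mRNA signal does not measure the processing of SREBP proteins.

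The fatty acid group had the lowest median of the 4 groups in E11.5 minus E10.5, -0.98. All 6 genes were lower there at an unadjusted p below 0.05, where 18.3% of all genes were, and 0 passed after adjustment. After quantile normalization 6 of 6 were still below 0, where 50.5% of all genes were, with a median of -0.47. In E12.5 minus E11.5 the median was 0.54, with Scd1 the 1 gene below 0, where 40% of all genes were. After quantile normalization that median was 0.053 with 2 genes below 0, where 58.1% of all genes were. In E12.5 minus E10.5 the median was -0.35 with 6 of 6 below 0, where 58.6% of all genes were, and Scd1 was called. After quantile normalization 4 of 6 were below 0 in E12.5 minus E10.5, where 56.4% of all genes were, with a median of -0.30. Scd1 and Fasn were then called lower, where 397 of all 13050 genes were.

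Scd1 read 9.38, 9.56 and 8.78 at E10.5, 8.22, 8.07 and 8.52 at E11.5, and 7.89 and 7.35 at E12.5. No arrays of different stages overlapped, and each later stage lay lower, as for Tm7sf2 and no other member. Scd1 fell by 1.62 on the log2 scale in E12.5 minus E10.5 (SE 0.32, limma adjusted p = 0.0166), to 0.326 of its E10.5 signal. With the arrays' letters as a block the limma adjusted p of Scd1 was 0.0629. Its second probe set fell too, by 1.33 (SE 0.27, limma adjusted p = 0.0201). The call was lost with only the E12.5 and E10.5 arrays (adjusted p = 0.0564) and without E12.5 B (0.307), and held in the other 7 fits that left out 1 array, and over 22 alternatives the adjusted p ranged from 0.000902 to 0.307. Scd2, a second desaturase that is abundant in the nervous system, had -0.06 (SE 0.50) in the same comparison. Scd2 read 13.81, 13.55 and 13.37 at E10.5, 11.62, 12.66 and 13.47 at E11.5, and 13.49 and 13.55 at E12.5. Its 3 E11.5 arrays spread widely, and E11.5 C lay within the range of E10.5.

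Fasn, the synthase that assembles palmitate, read 10.21, 9.55 and 9.88 at E10.5, 8.52, 8.54 and 9.12 at E11.5, and 8.67 and 8.80 at E12.5. All later arrays lay below the E10.5 arrays, and E12.5 overlapped E11.5. The change was -1.15 in E12.5 minus E10.5 (SE 0.32, limma adjusted p = 0.0620). It passed in only 8 of 22 alternatives, among them 2 of the 8 fits that left out 1 array. Other alternatives that passed were quantile normalization (-1.04, adjusted p = 0.0203), no trend in the prior (0.0493) and the Gapdh covariate (0.0347). Elovl6, which lengthens palmitate to stearate, read 9.24, 9.73 and 9.77 at E10.5, 8.38, 8.75 and 8.89 at E11.5, and 9.65 and 9.23 at E12.5. Its E11.5 arrays lay below all others, and E12.5 overlapped E10.5. The change in E11.5 minus E10.5 was -0.91 (SE 0.28, limma adjusted p = 0.161). Acly, which releases acetyl-CoA from citrate, had -1.02 (SE 0.34) and Acaca, acetyl-CoA carboxylase, -0.82 (SE 0.24) in that comparison, or -0.05 and -0.53 after quantile normalization.

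**Figure D4:**
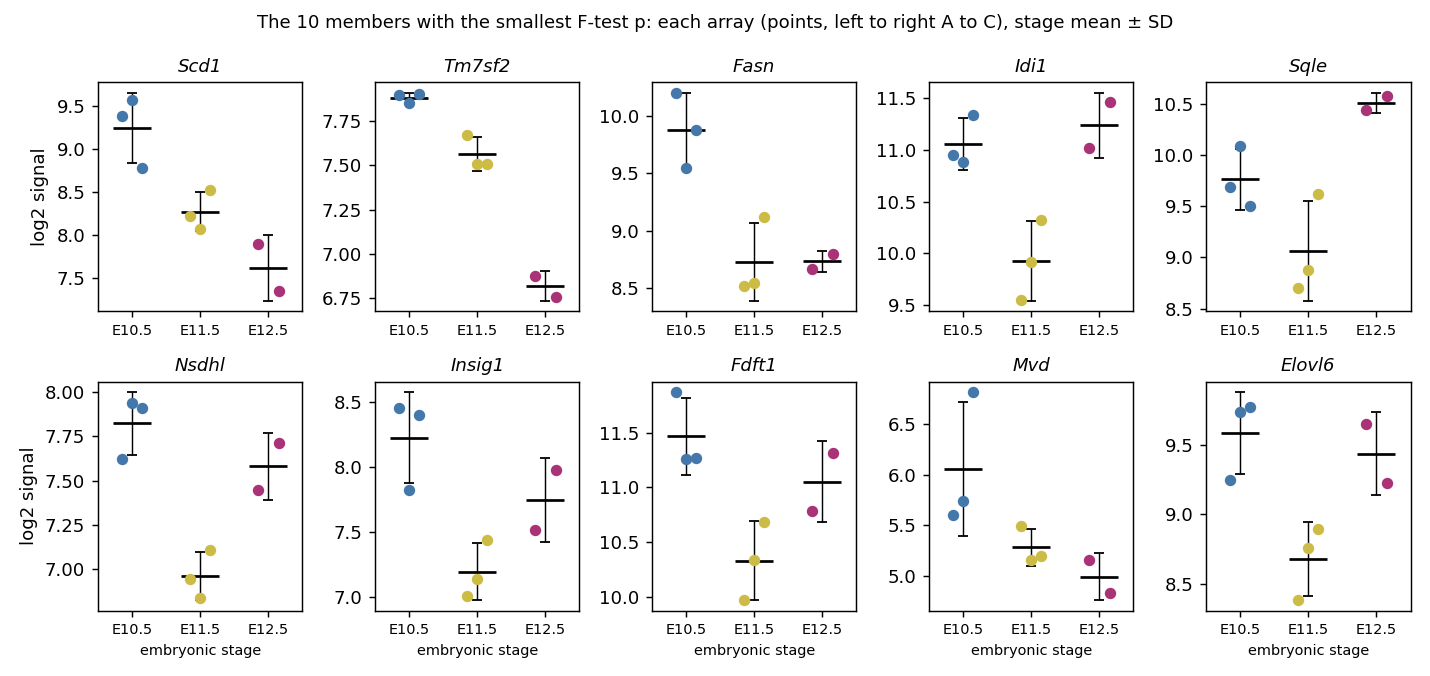
Log2 signal on each array (points, left to right A to C) with the stage mean and SD (black) for the 10 members with the smallest F-test p. Scd1 and Tm7sf2 step down at each stage, Fasn is low from E11.5 on, and Idi1, Sqle, Nsdhl, Fdft1 and Elovl6 have their lowest stage mean at E11.5.

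Probe sets of the same gene did not always give the same sign. Of the 30 members, 17 had more than 1 passing probe set, 30 further probe sets in all. Of these 30, the sign matched that of the probe set used here for 27 in E11.5 minus E10.5, 23 in E12.5 minus E11.5 and 16 in E12.5 minus E10.5. The 2 Lss probe sets named next gave different results. The probe set used read 9.30, 9.26 and 9.17 at E10.5, 8.45, 8.64 and 8.63 at E11.5, and 8.57 and 8.95 at E12.5, with a change of 0.18 (SE 0.27) in E12.5 minus E11.5. Another, chosen after its values were seen, read 4.90, 4.90 and 5.08 at E10.5, 4.57, 4.65 and 4.72 at E11.5, and 5.50 and 6.48 at E12.5. It rose by 1.34 in E12.5 minus E11.5 (SE 0.27, limma adjusted p = 0.0285) and by 1.03 in E12.5 minus E10.5 (SE 0.27, limma adjusted p = 0.04996). Over all 27022 probe sets, 1.82% were called in E12.5 minus E11.5, 4.64% in E12.5 minus E10.5 and 0.126% in E11.5 minus E10.5. For Hmgcs1 the probe set used gave -0.12 in E12.5 minus E10.5, while the other 4 gave between 0.27 and 0.76. None of these 5 probe sets passed in that comparison.

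**Figure D5:**
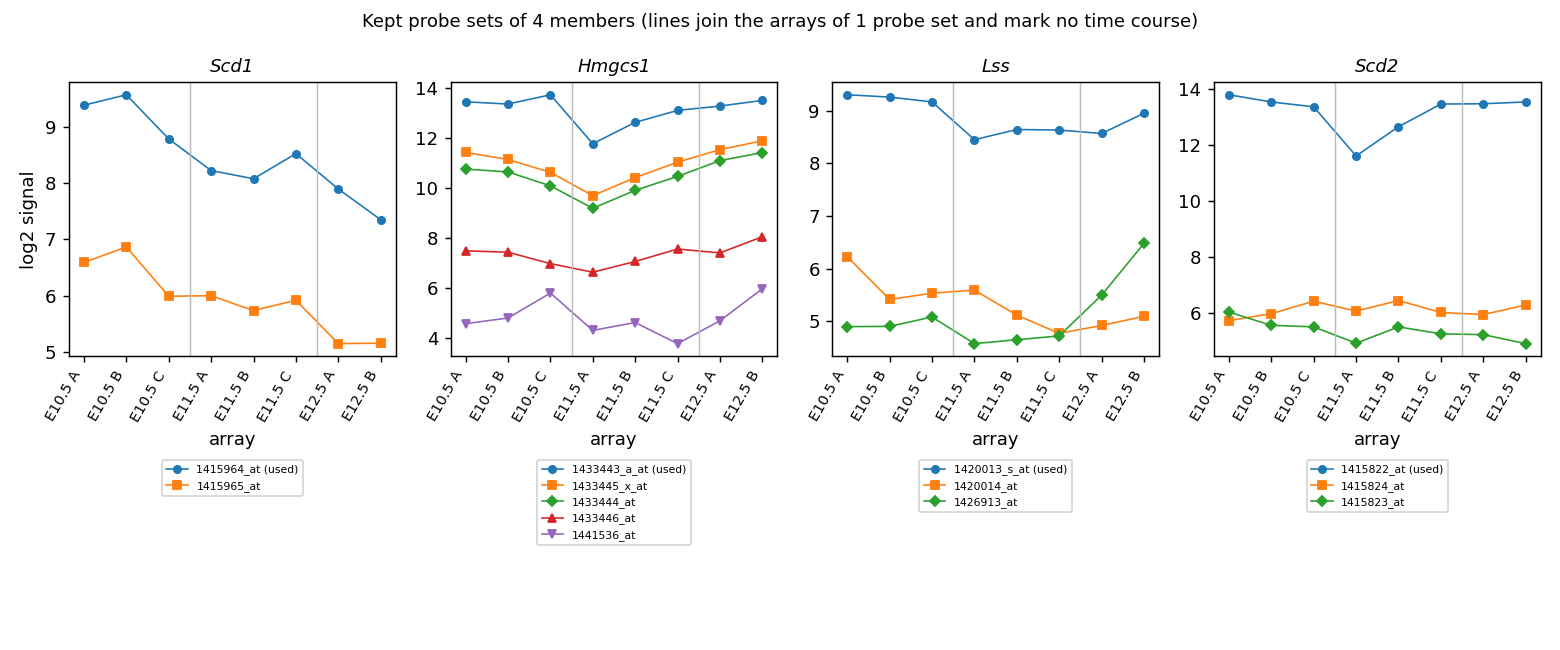
Log2 signal of every passing probe set of Scd1, Hmgcs1, Lss and Scd2 on the 8 arrays. Both Scd1 probe sets are lowest at E12.5, and of the 3 Lss probe sets 1 lies higher at E12.5 (5.50 and 6.48) than on all earlier arrays (4.57 to 5.08).

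Other genes of lipid synthesis and sterol traffic were followed for comparison, from lists chosen with earlier results known. Of 23 measured genes of other lipid synthesis steps, such as acyl-CoA synthetases, elongases and desaturases of longer chains, 0 passed in any comparison in limma on the deposited scale. Of all genes, 0.176% passed in E11.5 minus E10.5, 2.02% in E12.5 minus E11.5 and 5.26% in E12.5 minus E10.5. After quantile normalization 2 of the 23 were called lower in E12.5 minus E10.5, where 397 of all 13050 genes were. At an unadjusted p below 0.05 there were 5 lower and 1 higher in E11.5 minus E10.5, 0 and 4 in E12.5 minus E11.5, and 4 and 1 in E12.5 minus E10.5. The shares of all genes, in the same order, were 18.3% and 3.87%, 3.22% and 14.9%, and 13.1% and 11.1%. The medians of the 23 genes were -0.28, 0.04 and -0.06 in these comparisons. Of 15 genes of SREBP processing and sterol traffic, Mylip, a ubiquitin ligase that removes lipoprotein receptors when sterols are plentiful, rose by 1.14 in E12.5 minus E10.5 (SE 0.28, limma adjusted p = 0.0412). Mylip read 6.72, 6.21 and 6.66 at E10.5, 7.04, 7.30 and 7.68 at E11.5, and 7.78 and 7.56 at E12.5, and the later arrays all lay above those of E10.5. The other 14 did not pass in any comparison on the deposited scale, and after quantile normalization 2 of the 15 were called higher in E12.5 minus E10.5. Of all 13050 genes, 3.49% were called higher in that comparison on the deposited scale, and 588 were after quantile normalization.

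Markers of other cell types also differed between stages. The log2 of the summed signal of the 8 markers of newborn neurons was 6.82 to 7.04 at E10.5, 6.57 to 6.73 at E11.5 and 12.06 to 13.30 at E12.5, with all 8 above the filter. Both E12.5 arrays thus lay far above the 6 earlier ones. For the 6 pigment epithelium markers, all above the filter, it was 10.63 to 12.46 at E10.5, 11.51 to 12.79 at E11.5 and 11.62 to 12.30 at E12.5. For the 7 markers of periocular mesenchyme it was 7.46 to 7.99 at E10.5, 9.22 to 10.06 at E11.5 and 8.64 to 9.53 at E12.5, with Twist1 and Col1a1 below the filter. For the 6 macrophage markers it was 8.55 to 10.32 at E10.5, 9.17 to 9.41 at E11.5 and 9.83 to 10.30 at E12.5, with Aif1 below the filter. The mesenchyme sums of both later stages lay above those of E10.5, while the macrophage sums overlapped between E12.5 and E10.5. The pigment sums overlapped as well. Between E12.5 and E10.5, Tyr, Tyrp1 and Slc45a2 lay higher without overlap and Trpm1 lower without overlap, while Dct and Pmel overlapped. Tyr and Trpm1 are given here, chosen after their values were seen. Tyr read 3.09 to 4.25 at E10.5, 7.57 to 9.28 at E11.5 and 9.10 to 9.67 at E12.5, and Trpm1 read 9.70 to 11.72 at E10.5, 9.53 to 10.51 at E11.5 and 7.35 to 8.49 at E12.5. For the 6 lens markers the log2 of the summed signal was 6.53 to 6.995 at E10.5, 8.68 to 9.03 at E11.5 and 8.38 to 8.75 at E12.5, with Crygs, Cryba1 and Foxe3 below the filter. Of the 3 lens markers above it, Cryab read 3.71 to 4.67 at E10.5, 7.20 to 8.47 at E11.5 and 7.94 to 8.43 at E12.5. Cryaa read 3.96 to 4.22, 3.96 to 4.31 and 3.70 to 4.01 in the same order, and Prox1 2.95 to 6.13, 5.85 to 8.07 and 5.34 to 5.41. Both later stages of Cryaa and Prox1 overlapped E10.5. For the 6 endothelial markers it was 7.20 to 7.73 at E10.5, 7.16 to 7.46 at E11.5 and 7.91 to 7.97 at E12.5, with Pecam1, Cdh5 and Tie1 below the filter. For the 5 measured red cell markers, all above the filter, the log2 of the summed signal was 14.04 to 14.46 at E10.5, 13.23 to 14.47 at E11.5 and 14.01 to 14.12 at E12.5. Hbb-y was the brightest of them. Between E12.5 and E10.5, Hbb-bh1 and Hba-a1 lay lower without overlap, while Hbb-y, Hba-x and Alas2 overlapped. Hbb-bh1 read 10.90 to 11.44 at E10.5 and 7.29 to 8.96 at E12.5. The part of these cell types in the values of Scd1, Tm7sf2 and the other members was not tested.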

How the data were processed

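The authors deposited log2 signals, 1 per probe set and array. The submitters' processing notes list GCOS 1.4 without saying what it did, and the summary and normalization methods are not given in the sources used here. Per the labels' protocols, RNA was amplified by repeated in vitro transcription, which favours 3′ ends. Replicates are biological per the labels, which leave unclear whether the pools share litters, so p-values measure the spread between these arrays.

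Genes came from the platform annotation of 2016, from probe sets with 1 symbol. The 64 control probe sets and the lowest 40% by mean signal (below 3.94) were left out. limma 3.58.1 in R 4.3.3 fitted 1 model of stage to all 8 arrays (5 residual degrees of freedom, prior trend), with two-sided tests, Benjamini-Hochberg adjusted over 27022 probe sets, threshold 0.05. Members, lists and rules were chosen with earlier results of these data known. The rule for naming genes gave values per array for called members and for the 10 with the smallest F-test p, and of the other lists up to 4 called genes were named, while Scd2, Insig2 and a second Lss probe set were added after their values were seen. Same-lettered arrays were not treated as pairs. Quantile normalization, median centring, pseudocounts, filters, covariates, weights, a block and left-out arrays were tried.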

Additional observations from a re-analysis of the deposited data

How the results depend on the processing

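Over 22 alternatives the members' median in E11.5 minus E10.5 stayed below 0 (from -0.83 to -0.24), as did that in E12.5 minus E10.5 (-0.50 to -0.16). That in E12.5 minus E11.5 was above 0 in 21 of 22 (-0.15 to 0.68). Quantile normalization gave -0.24 in E11.5 minus E10.5 and 0.094 in E12.5 minus E11.5, the Gapdh covariate gave -0.43, -0.15 and, in E12.5 minus E10.5, -0.50, and the mean of a gene's probe sets gave -0.50 and 0.32. Leaving out 1 array gave -0.83 to -0.50 in E11.5 minus E10.5. In E12.5 minus E10.5 the count of members called lower was 0 to 3 without 1 array, 0 with only the arrays of these stages and 0 with the replicate block. In E12.5 minus E11.5, 0 to 2 were called higher without 1 array. The F test called 1 member, against 0 to 4 without 1 array, 2 with quantile normalization, the Gapdh covariate or the mean of probe sets, 3 with no trend, and 0 with median centring, no filter or the replicate block. Without E10.5 C and E11.5 A together, added after seeing the data, it called 2.

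Array weights put most weight on E11.5 B (218, where the estimate did not converge, and 11.8 gene by gene, the second added after seeing the data). They called 20 and 15 members lower in E11.5 minus E10.5, 18 and 18 higher and 3 and 3 lower in E12.5 minus E11.5, 5 and 4 lower in E12.5 minus E10.5, and 25 and 25 by the F test. Of all 27022 probe sets, the first weights called 5017, 12520 and 3371 in these comparisons, and 14838 by the F test. Of the 5017, 12520 and 3371 probe sets, 1167, 8533 and 1933 were higher and the rest lower. Probe sets called over all genes moved as well. From 34, 492 and 1255 in E11.5 minus E10.5, E12.5 minus E11.5 and E12.5 minus E10.5, they became 46, 414 and 1646 with quantile normalization, of which 42, 280 and 1004 were higher (26, 438 and 833 as deposited). They became 152, 73 and 790 with the Gapdh covariate, 5, 280 and 531 with the replicate block, and 5017, 12520 and 3371 with array weights (2733, 10431 and 3054 gene by gene). In E11.5 minus E10.5 they were 0 with a pseudocount of 64, 6 with no trend, 103 without E10.5 C and E11.5 A, and 15 with only those stages. In E12.5 minus E10.5 they were 509 with only those stages. Without 1 array they ranged from 5 to 56, from 114 to 905 and from 209 to 1610. By the F test they were 788, against 189 to 1046 without 1 array, 351 with the replicate block, 1195 without E10.5 C and E11.5 A, and 14838 and 12291 with array weights. The correlations of deviations from stage means between arrays of the same letter ran from -0.39 to 0.13. With so few arrays a stage the deviations within a stage depend on each other. Whether the letters pair the arrays could therefore not be decided from them. With the replicate block Scd1 had an adjusted p of 0.0629 and Tm7sf2 of 0.0966, and with only the arrays of E12.5 and E10.5 of 0.0564 and 0.0759. The cause of these differences was not tested. No sequencing depth applies to arrays, and signal over background is known only from the log2 values.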

Other observations

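On E10.5 C, 9 of the 30 members (Cyp51, Fdps, Hsd17b7, Insig2, Lbr, Msmo1, Sc5d, Scd1 and Stard4) lay more than 0.5 below both other E10.5 arrays, or 30%, where 11.9% of all genes did so. On the same array 2 members (Mvd and Mvk) lay more than 0.5 above both, or 6.67%, where 14.8% of all genes did so. Msmo1, for example, had 6.64 on E10.5 C against 8.37 and 8.59 on A and B, and Cyp51 had 7.57 against 9.41 and 9.36. For some genes the direction on E10.5 C differed between probe sets. Hmgcs1 read 13.74 on C with its brightest probe set, above 13.46 and 13.37 on A and B, but 10.10 with another, below 10.77 and 10.65. Idi1 read 11.34 on C, above 10.95 and 10.88, but 9.86 with its other probe set, below 10.57 and 10.80. The Gapdh 3′ minus 5′ signal of E10.5 C, 4.19, was the lowest of its stage, and its part in these values was not tested.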
